A study of Mus musculus with 12 samples.

Results

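Cytochrome P450 genes of families 1 to 3 were compared between control livers and livers that had lost 2 acetyl-CoA producing enzymes in hepatocytes. All rows of the deposited expression table whose symbol began with Cyp1, Cyp2 or Cyp3 followed by a subfamily letter and a number were taken, which gave 36 genes of 12284 named rows. They comprised Cyp2c with 11 members, Cyp2d with 6, Cyp2a with 4, Cyp3a with 4, Cyp2j with 3, and 8 subfamilies with 1 measured member each (Cyp1a, Cyp2b, Cyp2e, Cyp2f, Cyp2g, Cyp2r, Cyp2s and Cyp2u). RefSeq lists 59 protein-coding mouse genes of these families, of which 35 were in the table and 24 were not analysed here, and the remaining member, Cyp2d41-ps, is a pseudogene.

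Liver RNA came from Acly f/f; Acss2 f/f mice, so both groups carried floxed alleles of ATP citrate lyase and of acyl-CoA synthetase short-chain family member 2. At 6 to 8 weeks of age 1 group received AAV8-TBG-Cre (double knockout, DKO) and the other AAV8-TBG-GFP (wild-type control, WT). A Western diet (Teklad TD.88137) started 1 week later and was fed to both groups for 6 weeks before the liver was freeze-clamped. The TBG promoter is active in hepatocytes, so other liver cells were not targeted. There were 6 libraries a group. The labels do not say that each library is a separate mouse, so p-values measure the spread between these libraries only, and they give neither sex nor batch.

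P450 enzymes of families 1 to 3 are haem proteins of the endoplasmic reticulum that oxidise drugs, dietary chemicals, steroids and fatty acids with electrons from NADPH, delivered by P450 oxidoreductase and cytochrome b5. The liver holds most of them, and many are densest in the hepatocytes around the central vein. Receptors for small molecules set much of their transcription, and the aryl hydrocarbon receptor AhR (Ahr) acts on Cyp1a. Of the nuclear receptors, the constitutive androstane receptor CAR (Nr1i3) acts on Cyp2b and Cyp2c, and the pregnane X receptor PXR (Nr1i2) on Cyp3a. Growth hormone sets the sex-biased members of Cyp2a, Cyp2c and Cyp2d.

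Levels are given as log2 CPM, the log2 of read counts scaled to library size. Differences are DKO minus WT on that scale, with standard errors (SE) and adjusted p-values from limma fitted to all 12284 rows. The threshold was an adjusted p under 0.05, and genes that passed it are said to have risen or fallen and are counted as called. Sequencing depth is unknown, since counts cannot be read back from these values, so precision was judged from the spread between libraries alone.

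The targeted genes matched the labels as groups. Acly was at 6.56, 7.51 and 9.35 log2 CPM in the lowest, median and highest WT library and at 4.42, 4.65 and 6.60 in DKO, and the highest DKO library was above the lowest WT library (17.6% of WT, adjusted p = 0.0165; exact permutation p = 0.00433). Acss2 was at 6.12, 6.35 and 7.45 in WT and at 3.59, 4.01 and 5.74 in DKO, with no overlap (22% of WT, adjusted p = 0.00571; exact permutation p = 0.00216). The 4 measured Y-linked genes stood between 3.72 and 6.29 log2 CPM in all 12 libraries, so every library held RNA of male liver. Xist was not among the filtered rows. The library WT 1 stood apart for P450 genes: it was the lowest of its group for 16 of the 36 members, while WT 6 was the highest for 16. Among DKO libraries, DKO 4 was the lowest for 13 members, DKO 2 the highest for 14 and DKO 6 the highest for 12.

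Most P450 genes had lower means in DKO, 4 fell and none rose. Of the 36 members 29 (80.6%) had a lower mean in DKO and 7 a higher one, against 49.2% lower among all rows. Cyp2c29, Cyp2c37, Cyp2d26 and Cyp2d40 fell, which is 4 of 36 or 11.1%, where 1.12% of all rows were called lower and 1.74% were called in either direction. No member was called higher, against 0.619% of all rows. At an unadjusted p below 0.05, 16 members were lower and 3 were higher, against 8.47% and 7.95% of all rows. The groups did not overlap, with DKO lower, for 3 members (Cyp2c37, Cyp2d26 and Cyp2d40, 8.33%), against 1.38% of all rows. They did not overlap with DKO higher for 0 members, against 0.79% of all rows. In bulk RNA of whole liver, fewer hepatocytes and less P450 RNA in each hepatocyte cannot be told apart.

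The median log2 difference of the 36 members was -0.22, beside 0.0041 over all rows. P450 genes are abundant in liver, so the 8026 rows whose mean reached 3 log2 CPM are the nearer standard. Of these rows 1.54% were called lower, and their median was -0.02. Among the 28 members that reached that level 4 (14.3%) were called lower, and their median was -0.24. A lower mean was found in 24 of the 28, and the share of the 8026 rows with a lower mean is not given. The members were chosen with earlier results of these data in view, and no test over the list was made. Leaving out WT 1 raised the number called to 7 of 36, with Cyp2b10, Cyp2c54 and Cyp2e1 added, 3.04% of all rows called, and a median of -0.28 over the 36. The number was 3 without any 1 of WT 2 to WT 6, DKO 3, DKO 4 or DKO 5, and Cyp2c29 was the gene lost. It was 5 without DKO 2 (Cyp2c68 gained) and 6 without DKO 6 (Cyp2c50 and Cyp2c54 gained). It was 4 without DKO 1, where Cyp2c29 was lost and Cyp2j5 gained.

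**Figure D1:**
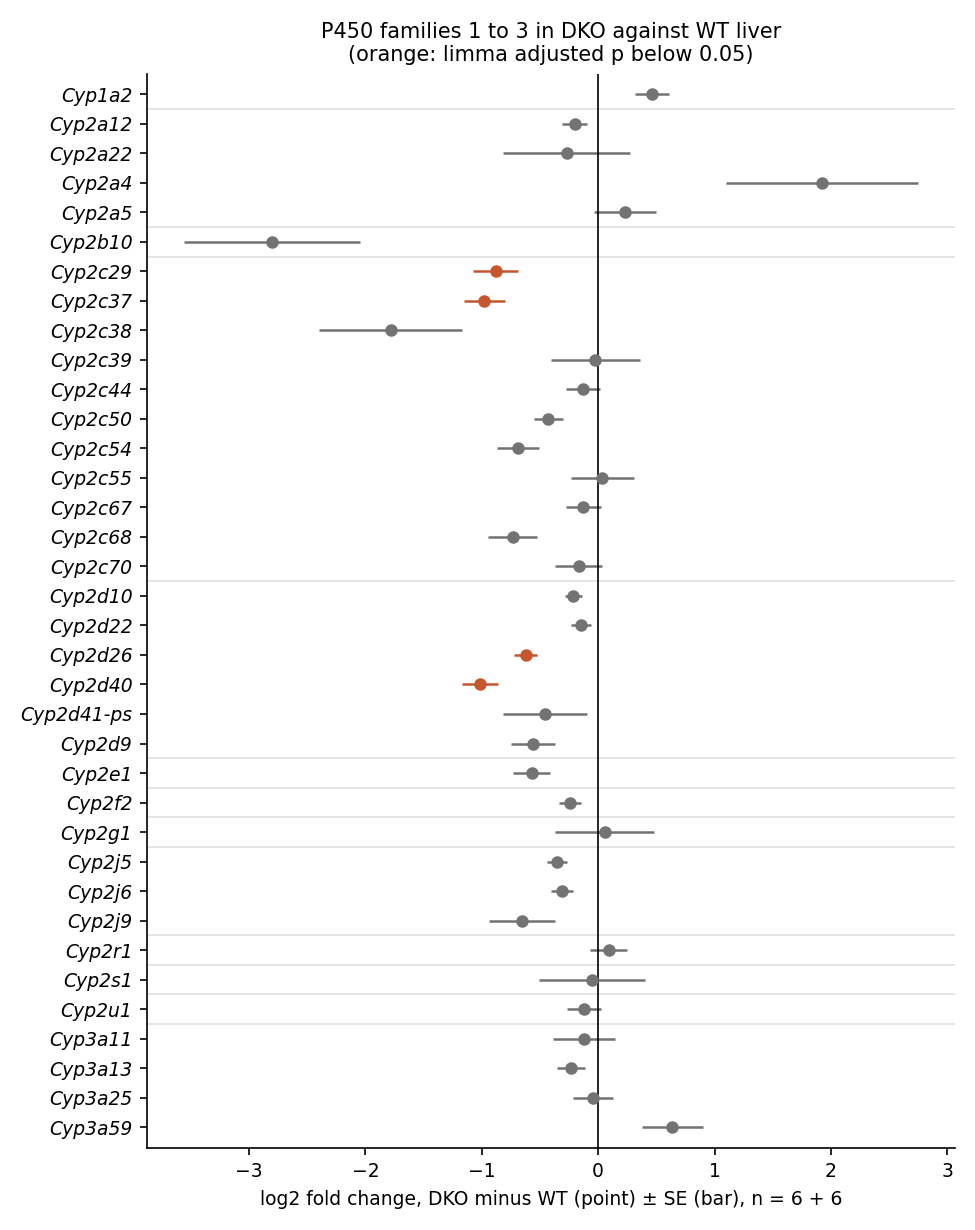
Log2 difference (DKO minus WT, horizontal axis) of each of the 36 P450 genes, grouped by subfamily between grey lines. Points are limma estimates and bars are standard errors from 6 + 6 libraries. The 4 genes that fell are orange, and 29 of 36 points lie left of 0.

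**Figure D2:**
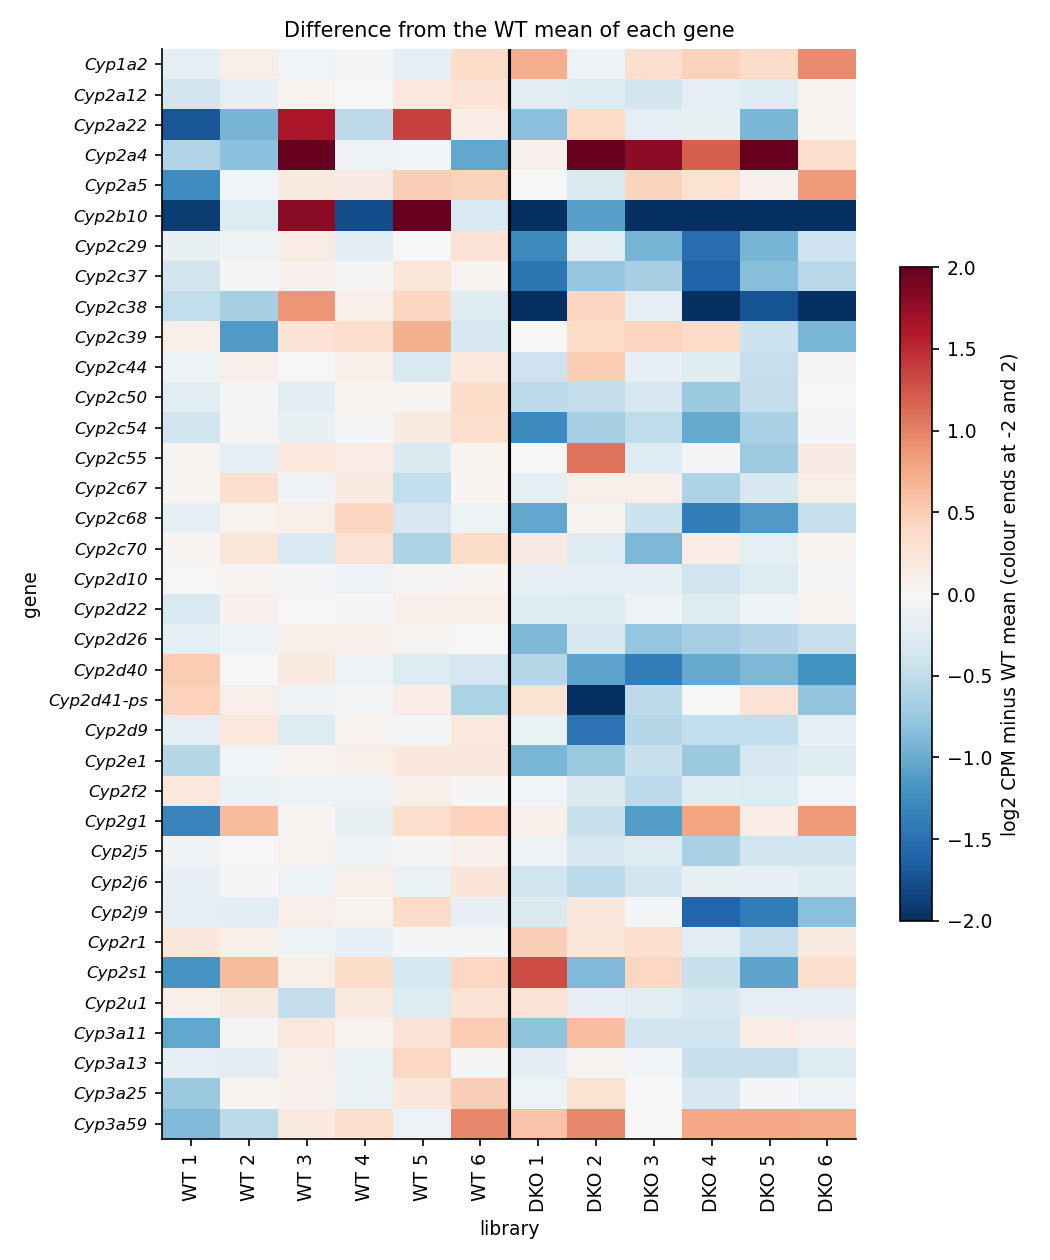
Level of each P450 gene (rows) in each of the 12 libraries (columns) as the difference from its WT mean on the log2 CPM scale. Blue is below and red above the WT mean, with colour ending at -2 and 2, and the black line separates WT from DKO. Cyp2c37, Cyp2d26 and Cyp2d40 are blue in all 6 DKO libraries, as are other rows such as Cyp2b10, Cyp2c29, Cyp2d9, Cyp2e1 and Cyp2f2. Many rows are blue in WT 1.

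The Cyp2c genes, whose enzymes epoxidise and hydroxylate arachidonic and linoleic acid besides drugs, lay lower in DKO in 10 of 11 members. Of the 11, 2 (18.2%) were called lower, against 1.12% of all rows, and the median log2 difference was -0.43. The mean log2 CPM over the 11 genes was 6.62 ± 0.12 in the 6 WT libraries and 6.09 ± 0.36 (SD) in the 6 DKO libraries, so DKO libraries also differed more among themselves. Cyp2c37, a fatty acid hydroxylase, was at 8.08, 8.49 and 8.70 log2 CPM in the lowest, median and highest WT library and at 6.85, 7.65 and 7.90 in DKO. Every DKO library was below every WT library, with DKO 1 and DKO 4 lowest. Cyp2c37 fell to 50.7% of WT (log2 difference -0.98, SE 0.175, adjusted p = 0.0144). It kept the call without any 1 library, at an adjusted p of at most 0.0416.

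Cyp2c29, an epoxygenase that CAR and PXR ligands induce, was the most abundant Cyp2c member. It was at 9.90, 10.07 and 10.41 log2 CPM in the lowest, median and highest WT library and at 8.59, 9.19 and 9.90 in DKO. The groups met at 1 library, DKO 2, which was level with the lowest WT library, and the other 5 DKO libraries were below all of WT. Cyp2c29 fell by 0.88 (SE 0.192, adjusted p = 0.0357; 54.4% of WT). This call was lost without any 1 of 9 libraries (adjusted p up to 0.0817) and kept only without WT 1, DKO 2 or DKO 6. It was also lost without limma's mean trend (adjusted p = 0.0649) and after quantile normalization (adjusted p = 0.0694).

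The 150 bases before the annotated start of the 2 genes that fell and of Cyp2c50, the closest relative of Cyp2c37, are shown to let their upstream stretches be compared. They are from RefSeq on GRCm38.p6, with Cyp2c29 at chr19:39286935-39287084, Cyp2c37 at chr19:39992274-39992423 and Cyp2c50 at chr19:40089529-40089678, all on the + strand and each ending at the base before the annotated start. They run 5′ to 3′, and capitals mark the letters CAAAG, the core of HNF4A sites, TATAAA, the TATA box, or AGGTCA, a nuclear receptor half-site, on either strand.
Cyp2c29: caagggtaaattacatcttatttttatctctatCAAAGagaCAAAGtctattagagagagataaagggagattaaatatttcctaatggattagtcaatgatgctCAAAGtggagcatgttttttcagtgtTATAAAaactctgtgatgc
Cyp2c37: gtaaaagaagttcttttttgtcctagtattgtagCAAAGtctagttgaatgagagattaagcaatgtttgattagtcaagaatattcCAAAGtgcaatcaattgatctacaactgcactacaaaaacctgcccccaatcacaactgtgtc
Cyp2c50: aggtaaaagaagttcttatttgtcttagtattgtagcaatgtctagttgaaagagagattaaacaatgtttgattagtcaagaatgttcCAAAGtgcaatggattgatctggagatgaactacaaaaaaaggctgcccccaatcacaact
Aligned over the whole window, Cyp2c37 and Cyp2c50 were identical at 87.3% of 150 bases, and Cyp2c29 and Cyp2c37 at 52.7%. The letters TATAAA were found before Cyp2c29 and in neither of the other two. The log2 difference of Cyp2c50, -0.43 (SE 0.125, adjusted p = 0.095), was smaller than that of Cyp2c37 although their windows are close copies. The difference between the 2 genes was not tested.

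Of 36 members 30 had a promoter entry. CAAAG was in 26 of the 30 windows, against 31.5% of all 32851 windows of the same length, TATAAA in 16 of 30 against 7.57%, and AGGTCA in 2 of 30 (Cyp2c39 and Cyp2c70) against 8.58%. Both strands were searched, and the windows of paralogs share ancestry, so they are not independent. A match to such short letters is a description of the window.

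The remaining Cyp2c genes are given in chromosomal order along chromosome 19 (RefSeq). After Cyp2c29 comes Cyp2c39, a retinoic acid hydroxylase found at a median of -0.12 log2 CPM in both groups, with a log2 difference of -0.02 (SE 0.382; 95% interval -0.84 to 0.80). The next measured gene is Cyp2c38, which makes epoxyeicosatrienoic acids. It spanned 3.61 to 5.16 log2 CPM in WT and 0.66 to 4.71 in DKO, where DKO 2 and DKO 3 lay within the WT range and the other 4 libraries below it (difference -1.78, SE 0.614, adjusted p = 0.155). Cyp2c67 followed at -0.13 (SE 0.151) and its neighbour Cyp2c68 at -0.74 (SE 0.213, adjusted p = 0.0939). Both share over 60% of their 31-base words with other genes (67.6% and 62.0%), most of all with Cyp2c40, which was not analysed here.

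The next 3 measured genes, Cyp2c37, Cyp2c54 and Cyp2c50, lie side by side. Cyp2c54 was at 7.50, 7.91 and 8.26 log2 CPM in WT and at 6.64, 7.24 and 7.86 in DKO, with 5 of 6 DKO libraries below all of WT (difference -0.69, SE 0.178, adjusted p = 0.068). Cyp2c50 also had 5 of 6 DKO libraries below all of WT, and DKO 6 within the WT range. These 3 transcripts share 42.3% to 47.9% of their 31-base words with other genes, most of all with another of the 3. Reads can therefore be split between them. Their summed CPM was 66.0% of WT (difference -0.60, SE 0.136, adjusted p = 0.0407), a sum chosen after seeing the data.

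At the far end of the cluster Cyp2c70 was at -0.17 (SE 0.2) and Cyp2c44 at -0.13 (SE 0.147). Cyp2c70 makes muricholic acids from bile acids and Cyp2c44 is an epoxygenase, and neither shares a 31-base word with another gene. Cyp2c55, a hydroxylase of arachidonic acid inducible through CAR and PXR, was low in liver at 0.62, 0.97 and 1.12 log2 CPM in WT and 0.18, 0.89 and 1.99 in DKO. The WT range lay inside the DKO range, with DKO 2 highest (difference 0.04, SE 0.271, adjusted p = 0.968).

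**Figure D3:**
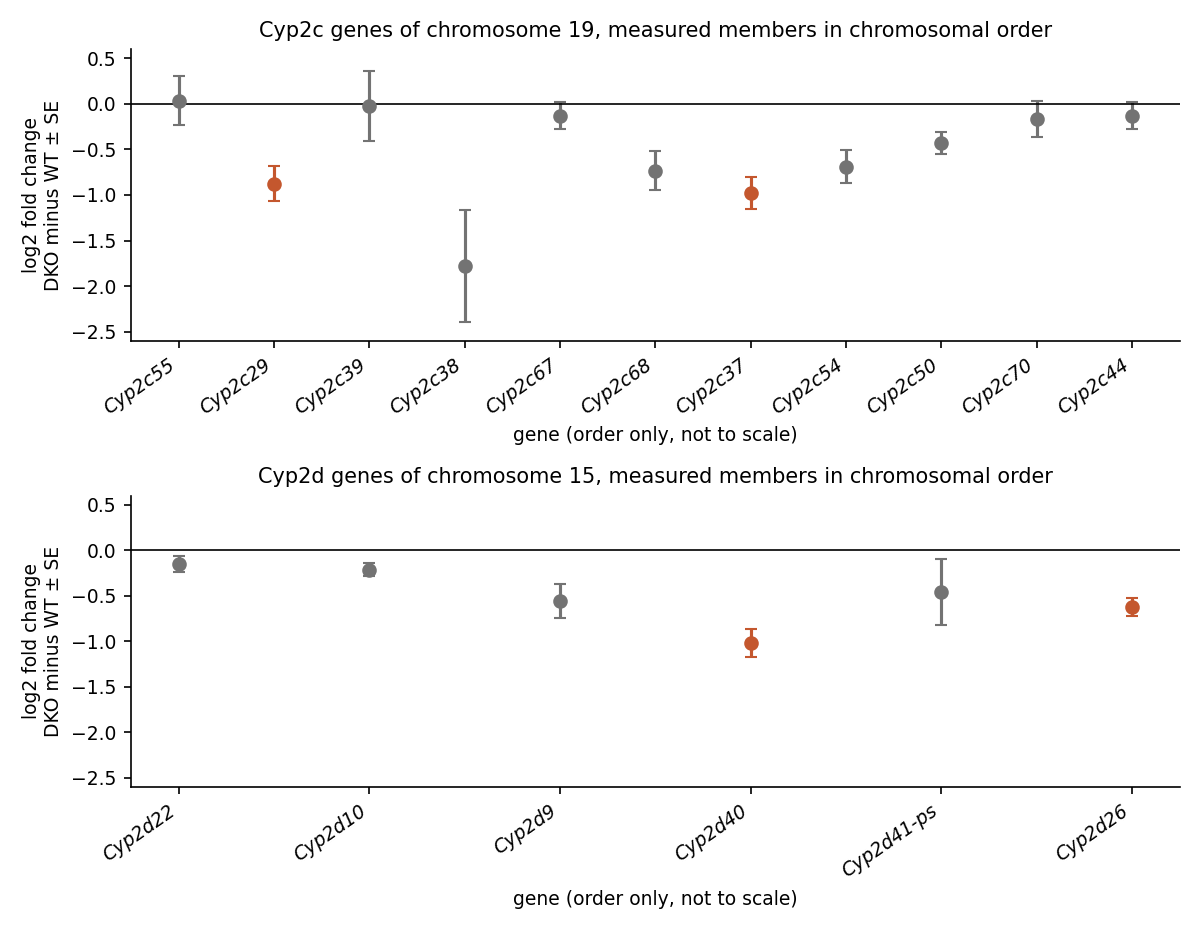
Log2 difference (DKO minus WT, points, with standard error bars, n = 6 + 6) of the measured Cyp2c genes of chromosome 19 (top) and Cyp2d genes of chromosome 15 (bottom), in chromosomal order and not to scale. Genes that fell are orange. Cyp2c29 and Cyp2c37 stand at -0.88 and -0.98, and between them lie Cyp2c39 at -0.02, Cyp2c38 at -1.78, Cyp2c67 at -0.13 and Cyp2c68 at -0.74.

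All 6 Cyp2d members were lower in DKO, and 2 (33.3%) were called, against 1.12% of all rows called lower. The median log2 difference was -0.51, or -0.30 without DKO 2. Cyp2d40 was at 6.57, 6.86 and 7.41 log2 CPM in the lowest, median and highest WT library and at 5.52, 5.87 and 6.34 in DKO. No DKO library reached the lowest WT library. Cyp2d40 fell by 1.02 (SE 0.154, adjusted p = 0.00566; 49.4% of WT), and this was the smallest adjusted p of the 36 members. It kept the call without any 1 library (adjusted p up to 0.0211).

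Cyp2d26 was at 9.79, 10.02 and 10.08 in WT and at 9.09, 9.35 and 9.66 in DKO. Again the groups did not overlap, and DKO 1 was the lowest library. Cyp2d26 fell by 0.62 (SE 0.099, adjusted p = 0.00777; 65.1% of WT) and also kept the call without any 1 library (adjusted p up to 0.0275), but not after quantile normalization between libraries (adjusted p = 0.0600). The transcript of Cyp2d40 shares 44.6% of its 31-base words with other genes, most of all with the neighbouring pseudogene Cyp2d41-ps. That pseudogene was at 1.53 and 1.22 log2 CPM in the median WT and DKO library. With Cyp2d40 and Cyp2d41-ps summed, the log2 difference was -0.997 (SE 0.154, adjusted p = 0.00677). Cyp2d26 shares 16.3% of its words with other genes.

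Cyp2d9, the testosterone 16-alpha-hydroxylase of male mouse liver, was the most abundant Cyp2d gene. It was at 10.51, 10.8 and 11 log2 CPM in WT and at 9.30, 10.29 and 10.64 in DKO. The ranges overlapped through DKO 1 and DKO 6, and DKO 2 was far below the others (difference -0.56, SE 0.19, adjusted p = 0.15; 67.9% of WT). Cyp2d10 differed by -0.21 (SE 0.0727, adjusted p = 0.15), with 5 of 6 DKO libraries below all of WT. Cyp2d22, the nearest mouse counterpart of human CYP2D6 in use, differed by -0.15 (SE 0.0885, adjusted p = 0.439).

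The same 150-base windows are shown for the 2 genes that fell and for Cyp2d9, at chr15:82794246-82794395 and chr15:82764123-82764272 on the - strand and chr15:82452227-82452376 on the + strand (RefSeq, GRCm38.p6). Capitals have the meaning given above for the Cyp2c windows.
Cyp2d26: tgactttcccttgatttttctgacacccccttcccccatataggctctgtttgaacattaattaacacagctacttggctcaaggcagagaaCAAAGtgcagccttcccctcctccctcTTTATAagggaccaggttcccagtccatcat
Cyp2d40: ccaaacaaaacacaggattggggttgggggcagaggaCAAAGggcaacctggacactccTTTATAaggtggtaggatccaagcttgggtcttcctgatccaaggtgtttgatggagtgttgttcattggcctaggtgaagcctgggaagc
Cyp2d9: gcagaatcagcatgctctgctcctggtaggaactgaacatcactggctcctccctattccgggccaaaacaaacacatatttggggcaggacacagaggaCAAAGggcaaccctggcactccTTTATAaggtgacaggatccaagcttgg
All 3 windows held CAAAG and TATAAA, the latter on the opposite strand as TTTATA. Aligned over the whole window, Cyp2d9 and Cyp2d10 were identical at 84.0% of the bases. In the Cyp2d40 window these letters lie farther from the annotated start than in the other two, and no identity over the window is given for it. The log2 difference of Cyp2d9 was -0.56 and that of Cyp2d10 -0.21.

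Cyp2b10 had the most negative log2 difference of the 36 genes and was not called. It is the standard index gene of CAR, low in untreated mouse liver and strongly induced by phenobarbital. It was at -0.08, 1.53 and 4.25 log2 CPM in the lowest, median and highest WT library and at -2.61, -1.22 and 0.73 in DKO. In all, 5 of 6 DKO libraries were below all of WT, DKO 2 was not, and WT 3 and WT 5 were far above the other WT libraries at 3.62 and 4.25. The difference was -2.80 (SE 0.758, adjusted p = 0.0802; exact permutation p = 0.00866), and the 95% interval ran from -4.43 to -1.18. With 1 library left out the adjusted p ran from 0.0398 (without WT 1) to 0.159 (without WT 5), and with libraries weighted by their quality in limma it was 0.0472. On the log2(CPM + 1) scale the difference was -1.65 (adjusted p = 0.111).

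Cyp2e1, which oxidises ethanol, acetone and paracetamol and is the most abundant member per kilobase of transcript, was at 12.31, 12.96 and 13.11 log2 CPM in WT and at 11.97, 12.29 and 12.64 in DKO. WT 1 was the only WT library inside the DKO range, and DKO 1 was lowest. The difference was -0.57 (SE 0.161, adjusted p = 0.088; 67.3% of WT), and without WT 1 the adjusted p was 0.0209. Cyp2f2, the naphthalene-oxidising enzyme of lung and of periportal hepatocytes, was at 10.02, 10.12 and 10.36 in WT and at 9.63, 9.89 and 10.1 in DKO. DKO 1 and DKO 6 lay within the WT range (difference -0.24, SE 0.0957, adjusted p = 0.221). Pericentral Cyp2e1 and periportal Cyp2f2 both had lower means in DKO, and neither was called.

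Cyp1a2 had a higher mean in DKO, unlike most of the family. This enzyme oxidises caffeine and aromatic amines and is under AhR control. It was at 8.57, 8.72 and 9.13 log2 CPM in WT and at 8.71, 9.19 and 9.71 in DKO. The groups overlapped, with DKO 2 lowest of its group, and 5 of 6 DKO libraries were above the WT mean (difference 0.46, SE 0.15, adjusted p = 0.131; 138% of WT). The adjusted p stayed between 0.0537 and 0.248 with any 1 library left out.

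The 4 Cyp2a genes had a median log2 difference of 0.01, and none was called. Cyp2a5, coumarin 7-hydroxylase, was at 7.60, 9.03 and 9.34 log2 CPM in WT and at 8.56, 9.04 and 9.69 in DKO. WT 1 was far below all other libraries (difference 0.23, SE 0.266, adjusted p = 0.726), and without it the difference was -0.02. Cyp2a12 was at 8.51, 8.91 and 9.15 in WT and at 8.51, 8.63 and 8.93 in DKO, with nearly the same lowest library in both groups (difference -0.20, SE 0.11, adjusted p = 0.379).

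Cyp2a4, a testosterone 15-alpha-hydroxylase that is higher in females, was near the low end of the table at -2.6, -1.92 and 1.07 log2 CPM in WT and at -1.47, -0.07 and 3.20 in DKO. All 6 DKO libraries were above the WT mean, but WT 3 was above 4 of them (difference 1.92, SE 0.825, adjusted p = 0.262; 0.871 on the log2(CPM + 1) scale). It shares 58.1% of its 31-base words with other genes, most of all with Cyp2a5, whose level was far higher. Some of these reads can therefore belong to Cyp2a5. The sum of the 2 genes differed by 0.24 (SE 0.264, adjusted p = 0.714). The remaining Cyp2a22 was at a median of -0.29 in WT and -0.28 in DKO.

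The 4 Cyp3a genes had a median log2 difference of -0.08, with none called. Cyp3a11, the main PXR-inducible enzyme of mouse liver, was at 9.69, 10.86 and 11.24 log2 CPM in WT and at 9.92, 10.57 and 11.34 in DKO. The ranges nearly coincided, WT 1 and DKO 1 being the lowest of their groups (difference -0.12, SE 0.263, adjusted p = 0.868; 95% interval -0.69 to 0.44). Cyp3a25 differed by -0.04 (SE 0.169). Cyp3a13 was at 7.13, 7.28 and 7.75 in WT and at 6.89, 7.09 and 7.39 in DKO, with 4 of 6 DKO libraries below all of WT (difference -0.23, SE 0.118, adjusted p = 0.346).

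Cyp3a59 was at 2.53, 3.45 and 4.37 log2 CPM in WT and at 3.41, 4.17 and 4.36 in DKO. The DKO libraries clustered inside the upper WT range (difference 0.64, SE 0.265, adjusted p = 0.244). It shares 48.9% of its 31-base words with other genes, most of all with the more abundant Cyp3a25. With the 2 genes summed the difference was -0.03 (SE 0.169, adjusted p = 0.962), the opposite sign to Cyp3a59 alone.

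The 3 Cyp2j genes, epoxygenases of arachidonic acid, were all lower in DKO, with a median of -0.35 and none called. Cyp2j5 was at 8.84, 8.94 and 9.02 log2 CPM in WT and at 8.29, 8.59 and 8.85 in DKO. Only DKO 1 reached the WT range (difference -0.35, SE 0.0858, adjusted p = 0.0550; 78.4% of WT). It passed with library weights (adjusted p = 0.0179) and after subtraction of library medians (adjusted p = 0.0451). Cyp2j6 differed by -0.31 (SE 0.0934, adjusted p = 0.102) and Cyp2j9 by -0.65 (SE 0.282, adjusted p = 0.268).

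Cyp2r1, a vitamin D 25-hydroxylase, was at 3.17, 3.30 and 3.56 in WT and at 2.85, 3.55 and 3.84 in DKO. The WT range lay within the DKO range (difference 0.09, SE 0.159, adjusted p = 0.829). Cyp2u1, a fatty acid hydroxylase, differed by -0.12 (SE 0.147). Cyp2g1, an enzyme of olfactory tissue, and Cyp2s1, which acts mostly outside the liver, were between -1.55 and 1.11 log2 CPM in all libraries and differed by 0.06 (SE 0.427) and -0.05 (SE 0.454). In all, 7 members averaged below 1 log2 CPM, and no member stood at the lowest value of the table, -3.26, in any library.

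**Figure D4:**
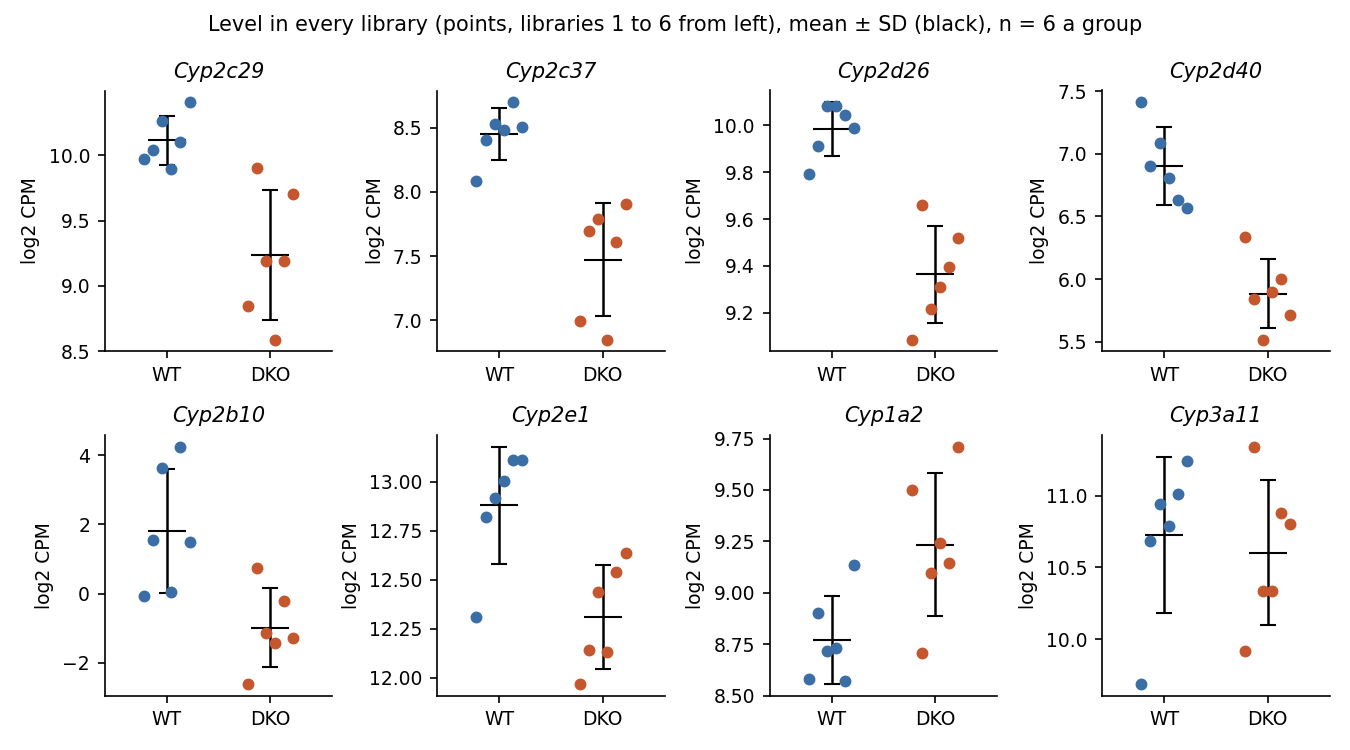
Level in log2 CPM (vertical axis, own range in each panel) of 8 P450 genes in each WT (blue) and DKO (orange) library, replicates 1 to 6 from left to right, with mean ± SD in black (n = 6 a group). Cyp2c37, Cyp2d26 and Cyp2d40 show no overlap of the groups, whereas Cyp3a11 spans 9.69 to 11.24 in WT and 9.92 to 11.34 in DKO.

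On a linear scale the 36 genes together took 2.08% ± 0.29 of the CPM of a WT library and 1.66% ± 0.22 of a DKO library (mean ± SD of 6). Their summed CPM ran from 16153 in WT 1 to 24491 in WT 6, and from 14229 to 19207 in DKO, so WT 1 lay within the DKO range. Without Cyp2e1 the sum was 13391 ± 1460 CPM for WT and 10901 ± 1150 CPM for DKO, so the lower DKO mean was not held by Cyp2e1 alone. No test was made of these sums, whose members were chosen with results in view.

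Divided by transcript length, the levels can be compared between genes. Cyp2e1 came first in both groups at 4180 CPM per kilobase in WT and 2810 in DKO. Next were Cyp2d9 at 1030 and 725 and Cyp3a11 at 760 and 699. Cyp2c29 had rank 4 in WT at 627 CPM per kilobase and rank 7 in DKO at 356, while Cyp1a2 had rank 13 in WT at 227 and rank 8 in DKO at 318.

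Per kilobase, the share of Cyp2e1 in the summed level was 36.8% ± 2.9 in WT and 32.8% ± 3.5 in DKO. Cyp1a2 took 2.02% ± 0.25 in WT and 3.73% ± 0.82 in DKO, with no overlap (1.62% to 2.24% against 2.54% to 4.85%). Cyp3a genes took 9.37% ± 1.71 and 11.7% ± 3.06, and Cyp2a genes 4.61% ± 0.64 and 6.11% ± 0.77. Cyp2c genes took 18.5% ± 1.67 and 17.2% ± 1.93, Cyp2d genes 21.0% ± 2.11 and 20.1% ± 2.47. Shares of 1 sum depend on each other and cannot all move one way.

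**Figure D5:**
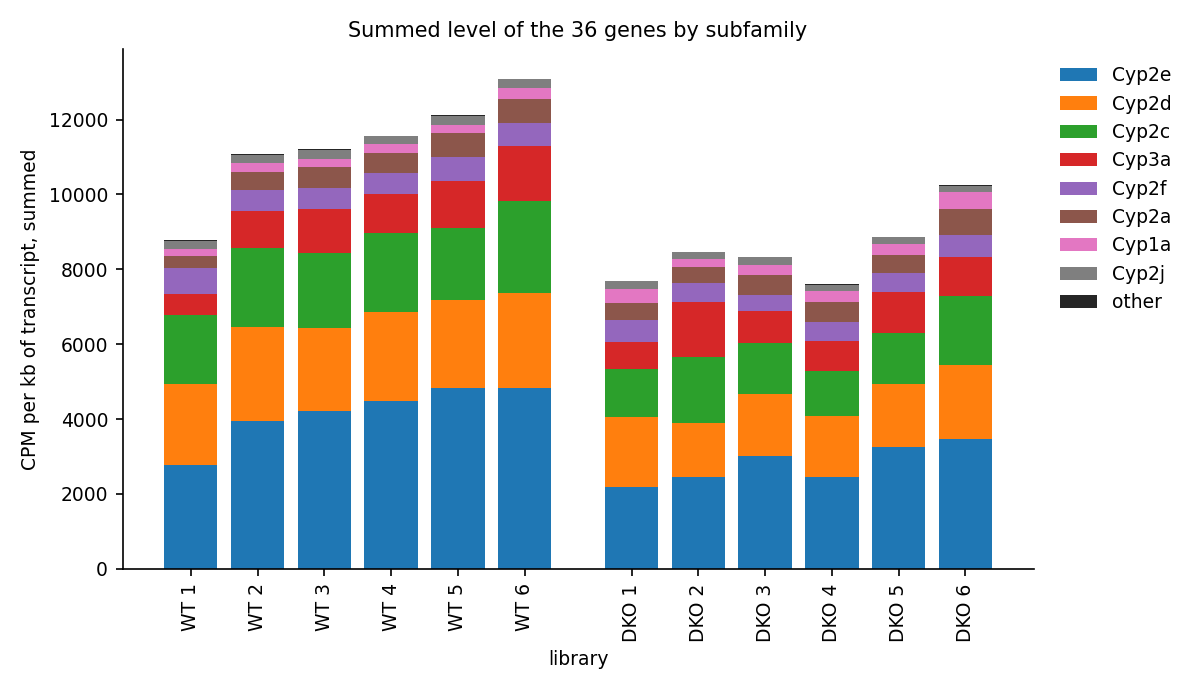
Summed level of the 36 P450 genes in CPM per kilobase of transcript (vertical axis) in each library, stacked by subfamily. Bars run from 8783 in WT 1 to 13093 in WT 6 and from 7597 to 10248 in DKO, so the 2 groups overlap through WT 1.

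The genes that control P450 transcription were described from a list of 27 regulators. None was called, 21 were lower in DKO, and 9 had an unadjusted p below 0.05, all lower (background 8.47%). Nr1i3, which encodes CAR, had the most negative difference of the list. It was at 7.31, 8.44 and 8.89 log2 CPM in WT and at 6.44, 7.39 and 8.14 in DKO, with overlapping groups (difference -1.004, SE 0.293, adjusted p = 0.0950; 49.8% of WT). Without WT 1 its adjusted p was 0.0276. Nr1i2, which encodes PXR, was at 6.47, 6.64 and 6.82 in WT and at 5.92, 6.40 and 6.70 in DKO (difference -0.27, SE 0.112, adjusted p = 0.247). Ahr differed by 0.22 (SE 0.272, adjusted p = 0.747) and Nr0b2, the repressor SHP, by -0.10 (SE 0.254, adjusted p = 0.891).

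Among the liver-enriched factors of the list, Hnf4a was at 84.5% of WT (adjusted p = 0.268) and Cebpa at 73.9% (adjusted p = 0.162). The 3 clock-output factors Dbp, Tef and Hlf, which act on Cyp2a, Cyp2b and Cyp2c genes, were at 69.1%, 74.2% and 76.6% of WT (adjusted p = 0.291, 0.177 and 0.207). These 5 genes were named after their values were seen.

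Of 6 redox partners, Pgrmc1, a haem-binding membrane protein that associates with P450 enzymes, fell by 0.41 (SE 0.0815, adjusted p = 0.0214; 75.1% of WT), a call kept in 7 of 12 fits with 1 library left out and lost after quantile normalization (adjusted p = 0.141). Por, P450 oxidoreductase, varied widely, at 8.42, 9.53 and 10.25 log2 CPM in WT and at 7.60, 9.33 and 9.63 in DKO (difference -0.54, SE 0.341, adjusted p = 0.467). The other 4 were not called. None of 14 genes of haem synthesis and breakdown was called (10 lower, median -0.10). Alas1, the rate-limiting enzyme of haem synthesis, differed by 0.17 (SE 0.383, adjusted p = 0.877), with WT libraries from 7.27 to 9.83 log2 CPM.

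Other enzymes that oxidise or hydrolyse foreign compounds were also mostly lower: 17 of 22 measured, with a median of -0.31. In this list 4 genes (18.2%) fell and 0 rose, against 1.12% and 0.619% of all rows. Ephx2, soluble epoxide hydrolase, which hydrolyses the fatty acid epoxides that Cyp2c and Cyp2j enzymes make, fell by 0.58 (SE 0.0876, adjusted p = 0.00571), to 67.0% of WT. Aox3, an aldehyde oxidase, fell by 0.58 (SE 0.128, adjusted p = 0.0357). Aldh1a1, retinal dehydrogenase, fell by 0.56 (SE 0.0956, adjusted p = 0.0120) and Mgst1, a microsomal glutathione transferase, by 0.38 (SE 0.085, adjusted p = 0.0372). The calls of Ephx2 and Aldh1a1 held without any 1 library, those of Aox3 and Mgst1 in 5 and 4 of 12 such fits. After quantile normalization the calls of Ephx2 (adjusted p = 0.0573), Aox3 (adjusted p = 0.119) and Mgst1 (difference -0.211, adjusted p = 0.402) were lost, and that of Aox3 also without the mean trend (adjusted p = 0.0671).

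Genes outside the P450 family that CAR or PXR induce moved in both directions. Of 27 measured, 4 rose and 2 fell (0.619% and 1.12% of all rows), with a median of -0.13. The glutathione transferases Gstm3 (664% of WT, adjusted p = 3.34e-06), Gsta1 (514%, adjusted p = 0.0145), Gstm2 (226%, adjusted p = 0.00078) and Gstm1 (205%, adjusted p = 0.000851) rose, while Ugt1a1, the bilirubin glucuronosyltransferase, fell to 65.1% (adjusted p = 0.0282) and Aldh1a1 fell as above. The groups did not overlap for any of the 4 that rose, against 0.79% of all rows. With DKO lower they did not overlap for Ugt1a1, Aldh1a1, Aldh1a7 and Gstt1 (14.8% of the list), against 1.38% of all rows. On the log2(CPM + 1) scale the difference of Gsta1, which was near or below 1 CPM in WT, was 1.43 in place of 2.36. Of 10 genes known to respond to AhR, Gsta1 rose and Ugt1a6a fell to 77.7% of WT (adjusted p = 0.0408). The Gstm and Gsta genes also respond to the stress factor NRF2. The calls of these 4 held without any 1 library, those of Ugt1a1 and Ugt1a6a in 5 and 2 of 12 such fits. Both were lost without the mean trend (adjusted p = 0.0564 and 0.0774) and after quantile normalization (adjusted p = 0.0885 and 0.118).

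Zonation and sex-biased genes were described because many P450 genes are zonated or sex-biased. Of 21 pericentral genes other than P450, Gstm3 rose, and the median was -0.08. Of 21 periportal genes, Cdh1 rose (248%, adjusted p = 0.0210), Pigr fell (64.4%, adjusted p = 0.0479), and the median was -0.005. Of 23 male-biased genes, Mup20 rose (229%, adjusted p = 0.00772) and Obp2a fell, from a WT median of 1.23 log2 CPM to a DKO median of -2.73, near the lowest value of the table. On the log2(CPM + 1) scale the difference of Obp2a was -1.43 in place of -3.83. The male-biased genes had a median of 0.05, with 10 of 23 lower. Of 12 female-biased genes measured, 8 were lower, with a median of -0.38 and 3 lower at an unadjusted p below 0.05, while Ntrk2 rose (315%, adjusted p = 0.0365). The calls of Obp2a and Mup20 held without any 1 library. With 1 library left out in turn, Cdh1 was called in 10 of 12 fits, Ntrk2 in 6 and Pigr in 3. Ntrk2 and Pigr lost their calls without the mean trend (adjusted p = 0.0611 and 0.0774) and after quantile normalization (adjusted p = 0.0596 and 0.112). Of 25 acute phase genes, which respond to inflammation, 14 were lower and 11 higher in DKO, with a median of -0.01. None was called by limma, and 1 was lower and 1 higher at an unadjusted p below 0.05. Within this list Saa1, Saa2, Lcn2 and Orm2 were at 234%, 337%, 270% and 243% of WT with a wide spread. Mt1 and Mt2 were at 41.8% and 36.1%. These genes were named after their values were seen, and a part of inflammation in the P450 differences was not tested.

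Markers of hepatocytes and of other liver cells were measured beside the P450 genes. Hepatocyte markers were lower in DKO in 15 of 21, with a median of -0.15, and Asgr1, the asialoglycoprotein receptor, fell to 78.4% of WT (adjusted p = 0.0452). Their summed level was 115000 to 140000 CPM in WT and 105000 to 144000 in DKO. Of 18 macrophage and monocyte markers all were higher in DKO and 3 rose (Gpnmb, Ccr2 and Lyz2), with a median of 0.66 and sums of 373 to 691 CPM in WT and 508 to 815 in DKO. All 15 endothelial markers and 13 of 15 stellate and fibroblast markers were higher, with 0 called by limma (6 and 8 at an unadjusted p below 0.05). Endothelial sums were 418 to 474 and 436 to 554 CPM, and stellate sums 458 to 557 and 530 to 689.

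Of 7 cholangiocyte markers 2 rose (Spp1 and Cd24a; sums of 37.3 to 47.5 CPM in WT and 52.4 to 82.8 in DKO), and of 5 lymphocyte and neutrophil markers Ighm rose (sums of 8.01 to 11 and 10.3 to 138). No measured marker of these lists stood at the lowest value in all libraries. With 1 library left out in turn, Gpnmb was called in 12 of 12 fits, Spp1 in 10, Ccr2 in 8, Cd24a and Ighm in 4 each, Lyz2 in 3 and Asgr1 in 2. The part of these cells in the P450 differences was not tested.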

How the data were processed

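Polyadenylated liver RNA was sequenced in 12 libraries, grouped by the genotype label. The authors deposited 1 table of log2 CPM, filtered and normalized per its name. Their filter, added count and scaling are not stated in the labels or the table. Kallisto 0.46.2, edgeR and limma, and the build GRCm39 (mm39), appear in the submitters' processing notes. Back-transformed values summed to 905964 to 1087992 CPM per library, and a row without a name (0.0075% to 0.0148%) was left out. The members and gene lists were chosen with earlier results of these data known.

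A 2-sided limma model with a variance trend (version 3.58.1, R 4.3.3) was fitted to all 12284 named rows, with Benjamini-Hochberg adjustment, and was tested on simulated data. Single values also had a 2-sided exact permutation test over 924 divisions (smallest p 0.00216). Genes given in full were those called, the most abundant and the smallest p in each direction of each subfamily with 2 or more members, a fixed set of index genes, and called genes of the lists with Nr1i2, Nr1i3, Ahr, Por, Alas1 and Nr0b2. Some genes of the lists are counted but not reported by name here. CPM per kilobase used the longest (protein-coding where annotated) GENCODE transcript of GRCm38. Shared sequence was the percentage of 31-base words found in any other gene, not only in the closest one. Chromosomal order and upstream sequences came from RefSeq (GRCm38.p6), another build than the authors', so no coordinates of the table were used. Alternatives were limma without trend, robust or with library weights, log2(CPM + 1), filters at 1 and 3 log2 CPM, median and quantile scaling, the replicate number as a block, the exact test adjusted over the table, and each library left out in turn. Sums joined each member that shares at least 30% of its words with other genes to the member it shares most with. They were added after seeing the data.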

Additional observations from a re-analysis of the deposited data

Results flagged for a closer look

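In 7 of 72 groups of 6 libraries (36 members in WT and in DKO), 1 library lay far from the nearest other relative to the group's range; chance gives about 1 in 20, here 3.6. WT 1 was the distant library in 4 of the 7 and the lowest of its group each time: Cyp2e1 at 12.3 log2 CPM (next lowest 12.8), Cyp3a11 at 9.69 (10.7), Cyp2a5 at 7.6 (8.79) and Cyp2d22 at 7.81 (8.09). For Cyp2d9, DKO 2 was lowest at 9.3 log2 CPM, with the next DKO library at 10.2. For Cyp2a4, WT 3 was highest at 1.07, with the next at -1.62. For Cyp2u1, DKO 1 was highest at 4.39, with the next at 3.94.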

How the results depend on the processing

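The number of members called lower was 8 with array weights, 2 after quantile normalization and 3 to 7 with 1 library left out (7 without WT 1), and no member was called higher in any of these fits. Of all rows tested, 356 were called with array weights, 138 without the mean trend, 109 after quantile normalization, and 92 (without WT 5) to 373 (without WT 1) with 1 library left out, against 214. The median of Cyp2d ran from -0.59 to -0.30 with 1 library left out. Adjusted over the table, the exact permutation test could call no gene. Its smallest possible p, 0.00216, became 0.1 after adjustment, so the missing calls say nothing about single genes. The log2 differences of -2.51 for Acly and -2.18 for Acss2 then had adjusted p = 0.12 and 0.1.

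Signs turned for Cyp2c55 (-0.064 with array weights, -0.11 after quantile normalization), Cyp2r1 (-0.0089 with array weights), Cyp3a11 (0.0333 after quantile normalization) and Cyp3a59 (-0.0262 summed with Cyp3a25). With 1 library left out they turned for Cyp2a5 (-0.0199 to 0.333), Cyp2c55 (-0.17 to 0.19), Cyp3a11 (-0.33 to 0.0141), Alas1 (-0.12 to 0.40) and Nr0b2 (-0.241 to 0.084). The cause was not tested. Of the values of 43 genes with 1 library left out, 434 kept direction and side of the threshold, 70 lost a call, 4 gained one and 8 turned. Under the other settings these numbers were 370, 41, 9 and 5. The 41 include the calls lost under the adjusted exact test, which could call none.

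WT and DKO libraries share replicate numbers, but the labels tie them to nothing. Deviations of same-numbered libraries from their group means correlated at 0.287, -0.077, 0.0926, 0.0957, 0.196 and 0.0444 for numbers 1 to 6, and 4 of 6 were highest with their own number, a hint of pairing from the data. Pairs were to be used only if the labels gave them or every correlation exceeded 0.1, which was not so. With a replicate block 9 members (Cyp2b10, Cyp2c50, Cyp2c54, Cyp2e1 and Cyp2j5 beside the 4) and 397 rows were called, and Nr1i3 and Por passed the threshold too (adjusted p = 0.00504 and 0.0455). Sequencing depth is unknown, so no limit from counting can be given.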
